A study of Mus musculus with 6 samples.

Results

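The state compared here was that of bone-marrow-derived macrophages that had received metformin and then lipopolysaccharide (LPS), set against the same cells left untreated. Wildtype C57BL/6 macrophages were differentiated from bone marrow with L929-conditioned medium and seeded as 2 libraries per group. The untreated group (Untr) received neither agent, the Met + LPS group was kept for 6 h with metformin at 5 mM and then for 2 h with LPS at 100 ng/ml, and a further group (LPS) had the same 2 h of LPS without metformin and is used here for reference only. Polyadenylated RNA was sequenced, and expression is given as TPM, a unit in which counts are divided by gene length and each library is scaled to the same total. Of the 54532 genes listed, 12497 had at least 1 TPM in 2 or more of the 4 Untr and Met + LPS libraries and were tested. No group with metformin alone was analysed here, so the contributions of metformin and of LPS to a difference from untreated cells cannot be told apart by this comparison. The labels do not say that the 2 libraries of a group came from separate mice, so p-values measure the spread between these libraries, which may be technical, and with bulk RNA fewer cells with a transcript cannot be told apart from less transcript per cell.

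LPS, which Gram-negative bacteria carry on their surface, is recognised by Toll-like receptor 4 (TLR4). Through the adaptors MyD88 and TRIF this receptor activates NF-κB and interferon regulatory factors, and macrophages answer within hours with cytokines, chemokines and type I interferon, which in turn induces interferon-stimulated genes. Metformin, a biguanide used in type 2 diabetes, inhibits complex I of the respiratory chain and activates AMP-activated protein kinase (AMPK). Stress that reduces the supply of amino acids or perturbs mitochondria acts through the integrated stress response, in which the transcription factor ATF4 induces genes of amino acid synthesis and import, whereas genes of cholesterol synthesis are under the control of the transcription factor SREBP2.

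The libraries held between 25457016 and 30762754 reads on genes, recovered from the TPM steps. All 10 macrophage markers examined were present, and together they summed to between 44992 and 46975 TPM in the untreated libraries and between 31086 and 31151 TPM in Met + LPS. Among these markers Adgre1 (F4/80) was at 1510.3 and 1575 TPM in Untr and 1365 and 1351 TPM in Met + LPS. The summed markers of neutrophils were between 29.99 and 32.8 TPM in Untr and between 43.8 and 45.9 TPM in Met + LPS, with 5 of 9 markers reaching 1 TPM in any library and Ly6g listed at 0 in 5 of the 6 libraries. Of 6 T cell markers only Cd4 reached 1 TPM. Outside the macrophage and neutrophil markers the remaining signal came mainly from Kit, a mast cell or basophil marker, and Kdr, an endothelial marker. In Met + LPS these were at 24.2 and 22.9 TPM and at 33.7 and 32.1 TPM. Their part in the results was not tested. Some genes named here share exon bases with another annotated gene (Aars 15.1%, Gadd45a 19.1%, Txnip 19.4%, Ndufb9 19.5%, Ccnd1 23.4%), and since the use of strand in counting is not stated, reads of such pairs cannot be fully told apart.

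Between Met + LPS and untreated macrophages, 3708 of the 12497 genes (29.7%) passed the cut-offs, namely a log2 fold change of 1 or more in size together with an adjusted p-value below 0.01 (limma on log2(TPM + 1), Benjamini-Hochberg). Of these, 955 genes (7.64%) were higher and 2753 genes (22%) were lower. The median log2 fold change of all tested genes was -0.49, so the balance of the directions depended on how the libraries were scaled. After the libraries were rescaled by the median of gene-wise ratios this median was -0.0048 and 2590 genes passed, with 1524 (12.2%) higher and 1066 (8.53%) lower. The 955 higher genes took between 2.73% and 2.75% of the TPM in the untreated libraries and between 21.3% and 21.6% in Met + LPS. Since TPM have a fixed sum, all fold changes below are to be read against the median of -0.49. With a cut-off of 2 on the log2 scale, 406 genes (3.25%) were higher and 276 (2.21%) were lower. The first principal component of the 4 libraries held 95.9% of their variance and separated the groups.

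**Figure D1:**
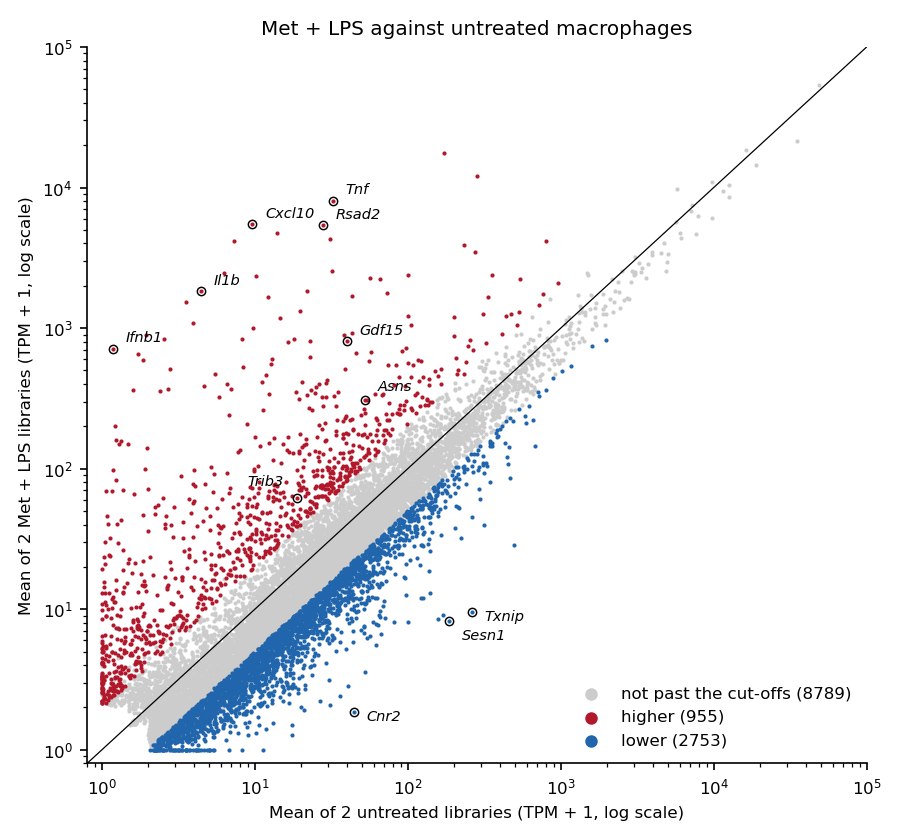
Mean level in the 2 Met + LPS libraries (vertical axis, TPM + 1, log scale) against the mean in the 2 untreated libraries (horizontal axis, same scale) for the 12497 tested genes, with the line of equal levels. The 955 higher genes (red) are scattered far above the line, with Ifnb1 near the left edge, and the 2753 lower genes (blue) form a dense band just below it, with Cnr2 and Txnip farthest out.

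The 10 largest increases were genes of the innate immune response. Ifnb1, which encodes interferon-β, was at 0.351 and 0 TPM in the untreated libraries, at 148 and 182 TPM after LPS and at 738 and 686 TPM after Met + LPS, a log2 fold change of 9.26 ± 0.15 (SE) over untreated (adjusted p = 2.18e-08). The untreated libraries held 2 reads of Ifnb1 and the Met + LPS libraries 8738, a ratio of 3981 with a 95% counting interval from 1102 to 32878. Acod1, whose product makes the antimicrobial metabolite itaconate, rose from 5.62 and 7.02 TPM to 4155 and 4209.6 TPM and was at 3902 and 3946 TPM after LPS. In each case the groups were far apart compared with the difference between duplicates. The remaining 8 genes were the chemokine genes Cxcl10, Cxcl1, Cxcl2, Ccl7 and Ccl2, the cytokine genes Il1b and Il12b, and Gbp5, a guanylate-binding protein that promotes inflammasome assembly, with log2 fold changes from 8.37 to 9.16.

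**Figure D2:**
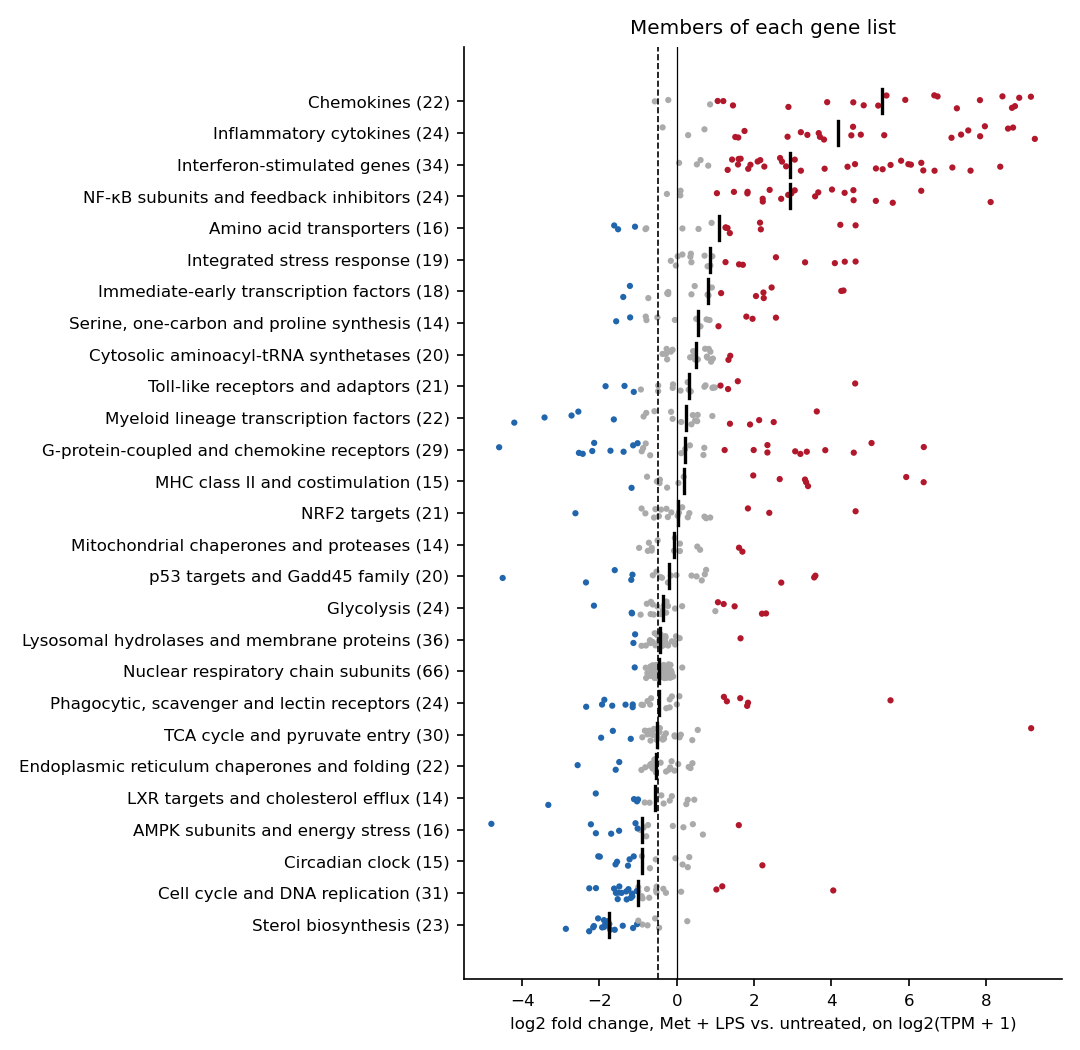
Log2 fold change of Met + LPS against untreated on log2(TPM + 1) (horizontal axis) for the tested members of 27 gene lists (vertical axis, number of members in parentheses). Each point is a gene, coloured red or blue where it passed the cut-offs, black bars are list medians and the dashed line is the median of all tested genes at -0.49; chemokines lie at the top with a median of 5.32 and sterol biosynthesis at the bottom with -1.75.

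Of 24 tested inflammatory cytokine genes, 21 rose, none fell and the median log2 fold change was 4.16, where 7.64% of all genes rose. Tnf, which encodes tumour necrosis factor, went from 29.0 and 33.6 TPM in Untr to 3920.4 and 3914 TPM in LPS and 8213 and 7925 TPM in Met + LPS, which is a log2 fold change of 7.97 ± 0.06 (SE) against untreated (adjusted p = 9.95e-10). The pyrogenic cytokine gene Il1b was at 2.76 and 4.17 TPM in Untr, 3207 and 2942 TPM in LPS and 1865 and 1793 TPM in Met + LPS, or 8.70 ± 0.14 (SE) on the log2 scale (adjusted p = 1.72e-08). Thus Tnf was higher in both Met + LPS libraries than in either LPS library, and Il1b was lower in both, while the 2 genes remained far above untreated. Il10, encoding an anti-inflammatory cytokine, showed the same order as Il1b with 4.52 and 4.16 TPM, 156 and 165 TPM and 67.9 and 66.0 TPM, a log2 fold change of 3.67 ± 0.05 (SE) over untreated (adjusted p = 1.18e-08). Il6, a cytokine of the acute-phase response, was at 0.162 and 0.287 TPM in Untr, 182 and 172 TPM in LPS and 190.1 and 208 TPM in Met + LPS. For Il12b, which encodes the p40 subunit shared by IL-12 and IL-23, 642 and 659 TPM in Met + LPS lay on both sides of the 654 and 637 TPM in LPS. The 3 members that did not pass were Tgfb1, Il18 and Osm, with log2 fold changes of -0.37, 0.29 and 0.72. As a share of all TPM, the cytokine list made up 0.0376% in untreated cells, 1.198% in LPS and 1.55% in Met + LPS on average.

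Of 22 tested chemokine genes, 19 rose and none fell, with a median log2 fold change of 5.32, where 7.64% of all genes rose and 22% fell. Ccl4 and Ccl3, which attract monocytes and T cells, reached the highest levels of the list in Met + LPS. Ccl4 was at 178 and 168 TPM in Untr and at 17979.6 and 17102 TPM in Met + LPS, and Ccl3 was at 291 and 272 TPM and at 12364 and 11845 TPM. Cxcl10, an interferon-inducible attractant of T cells, went from 8.41 and 8.86 TPM to 5491 and 5519.6 TPM (log2 fold change 9.16 ± 0.04 (SE), adjusted p = 1.92e-10) and was at 6961 and 7310.4 TPM after LPS alone. The neutrophil attractants Cxcl1 and Cxcl2 went the other way between the stimulated groups. Cxcl2 was at 2.16 and 2.97 TPM in Untr, 558 and 574 TPM in LPS and 1570.5 and 1472 TPM in Met + LPS, and Cxcl1 at 0.772 and 1.12 TPM, 558 and 554 TPM and 911 and 883 TPM. Ccl6, Cxcl14 and Cxcl5 did not pass the cut-offs, and the sign of Cxcl14 depended on the scaling (-0.22 as deposited and 0.28 after rescaling). Chemokine genes together made up 0.160% of all TPM in untreated cells and 5.00% in Met + LPS.

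The promoters of Cxcl1 and Cxcl2 are shown because they lie side by side and carry paired matches to the κB motif that NF-κB recognises, searched on both strands as GGG and TTTCC with any 2 bases between. The sequences are the 100 bases before the RefSeq start in GRCm38.p6, both on the plus strand, with motif matches in capitals. Cxcl1 is at chr5:90891145-90891244 and Cxcl2 at chr5:90903799-90903898.
Cxcl1: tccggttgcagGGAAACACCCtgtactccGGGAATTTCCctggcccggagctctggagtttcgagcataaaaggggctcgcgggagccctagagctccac
Cxcl2: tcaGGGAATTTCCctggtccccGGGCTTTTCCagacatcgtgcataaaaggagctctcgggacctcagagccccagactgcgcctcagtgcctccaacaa
In RefSeq windows that span the start of each gene, mostly upstream, the motif was found for 4 of the 14 tested chemokine genes with a window (Ccl9, Cxcl1, Cxcl2 and Cxcl3), for 3 of 18 cytokine genes (Csf1, Il1rn and Il6), and for 512 of 27025 genes in all (1.89%). A match is a description of these letters and not a site at which binding was measured.

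Of 34 tested interferon-stimulated genes, 30 rose and none fell, with a median log2 fold change of 2.94, and after rescaling 33 of the 34 rose. Over all genes 7.64% rose and 22% fell, and after rescaling 12.2% rose and 8.53% fell. Rsad2, which encodes the antiviral enzyme viperin, was at 27.3 and 26.6 TPM in Untr, 4606 and 5002 TPM in LPS and 5545 and 5287 TPM in Met + LPS, which is a log2 fold change of 7.60 ± 0.05 (SE) over untreated (adjusted p = 5.20e-10). Ifit1, whose product binds viral RNA, was at 29.7 and 30.2 TPM in Untr, 3657 and 3606 TPM in LPS and 4358 and 4296 TPM in Met + LPS. Both genes were higher in both Met + LPS libraries than in either LPS library. Mx1, an antiviral GTPase, had the reverse order, with 7.30 and 7.08 TPM in Untr, 1285 and 1386 TPM in LPS and 805 and 857 TPM in Met + LPS. The list was therefore high against untreated cells without a common order between the stimulated groups, and its share of all TPM averaged 0.139% in Untr, 2.49% in LPS and 2.42% in Met + LPS. Among the 4 members that did not pass, Bst2, which tethers virions to the cell, had the smallest log2 fold change with 0.06. Only 31.2% of the 31-base words in transcripts of Oas1a, which was also among these 4, occurred in no other gene, so its level is uncertain.

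Ifit1 and Rsad2 are shown as promoters with the interferon-stimulated response element, searched on both strands as GAAA and GAAA with any 2 bases between. Capitals mark the matches, which in both genes read on the opposite strand. Ifit1 is the 120 bases at chr19:34640769-34640888 on the plus strand, and Rsad2 the 130 bases at chr12:26456453-26456582 on the minus strand, each ending 1 base before the RefSeq start in GRCm38.p6.
Ifit1: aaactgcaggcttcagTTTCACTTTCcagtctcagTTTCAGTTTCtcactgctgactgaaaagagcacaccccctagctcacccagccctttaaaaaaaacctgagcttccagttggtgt
Rsad2: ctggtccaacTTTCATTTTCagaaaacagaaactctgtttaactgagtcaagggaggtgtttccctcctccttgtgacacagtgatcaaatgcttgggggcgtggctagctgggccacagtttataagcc
The motif was present for 18 of the 27 interferon-stimulated genes with a window (66.7%), compared with 3.99% of all genes.

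Genes of NF-κB and of feedback on inflammatory signalling, not all of them specific to NF-κB, were mostly higher as well. Of 24 tested NF-κB subunits and feedback inhibitors, 21 rose and none fell, with a median log2 fold change of 2.92, where 7.64% of all genes rose and 22% fell. Socs3, an inhibitor of cytokine receptor signalling, went from 3.18 and 2.70 TPM in Untr to 1122 and 1063 TPM in Met + LPS, with 1637 and 1790.4 TPM in LPS, and Tnfaip3, which encodes the ubiquitin-editing enzyme A20, from 13.7 and 13.6 TPM to 1202 and 1143 TPM, with 1435 and 1423 TPM in LPS. Nfkbiz, an atypical IκB protein, was at 15.3 and 15.6 TPM in Untr and at 813 and 768 TPM in Met + LPS. The phosphatase gene Dusp2 was at 5.78 and 5.71 TPM in Untr, at 464 and 542 TPM in LPS and at 241 and 235 TPM in Met + LPS, which is a log2 fold change of 5.15 ± 0.07 (SE) over untreated, where that of LPS was 6.22. Cyld, Tnip2 and Irak3 did not pass the cut-offs.

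Receptor genes passed the cut-offs in both directions, with counts that depended on the scaling. Of 21 Toll-like receptors and adaptors, 4 rose and 3 fell, with a median log2 fold change of 0.31, where 7.64% of all genes rose and 22% fell. After rescaling 9 of the 21 rose and 1 fell, with a median of 0.83, where 12.2% of all genes rose and 8.53% fell. Tlr2, which senses bacterial lipoproteins, went from 74.2 and 69.6 TPM to 1797 and 1769 TPM (log2 fold change 4.61 ± 0.04 (SE), adjusted p = 1.29e-09), whereas the LPS receptor gene Tlr4 went from 125 and 129 TPM to 34.6 and 34.8 TPM (log2 fold change -1.84 ± 0.04 (SE), adjusted p = 1.22e-07). Of 29 G-protein-coupled and chemokine receptor genes, 11 rose and 9 fell, and after rescaling 13 rose and 6 fell. Ccrl2, an atypical receptor that presents chemerin, was at 20.5 and 21.5 TPM in Untr, 685 and 688 TPM in LPS and 1912 and 1777 TPM in Met + LPS. The cannabinoid receptor gene Cnr2 was at 44.2 and 42.9 TPM in Untr, 0.264 and 0.241 TPM in LPS and 0.864 and 0.823 TPM in Met + LPS, the second largest decrease among all tested genes. Of 15 genes of MHC class II and costimulation, 7 rose and 1 fell, and after rescaling 7 rose and none fell. Cd40, which receives help from T cells, was at 5.83 and 5.29 TPM in Untr, 707 and 699 TPM in LPS and 396 and 403 TPM in Met + LPS, whereas Cd74 and H2-Aa of the class II pathway did not pass (-0.25 and -0.45, with positive signs after rescaling).

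A stricter view was given by genes that were under 1 TPM in both libraries of one group and at 10 TPM or more in both libraries of the other, which uses no test. By this measure 49 genes were switched on in Met + LPS and 6 were switched off. By their mean TPM in Met + LPS, the highest of the genes switched on were Ifnb1, Il12b, Il1a, Il6 and Ifi205. Ptgs2, which encodes the prostaglandin-forming enzyme COX-2, was not among the 49, since 1 untreated library was above the limit, and was at 0.603 and 1.10 TPM in Untr, 546 and 542 TPM in LPS and 612 and 563 TPM in Met + LPS. Of the 49, 42 were also at 10 TPM or more in both LPS libraries, and the 7 others were Csf2, Plagl1, Il23a, Aqp9, Lif, Flrt3 and Ptgs2os2, which are named after their values were seen. Lif, a cytokine of the IL-6 family, was at 0.0302 and 0.0321 TPM in Untr, 2.39 and 2.20 TPM in LPS and 13.4 and 13.5 TPM in Met + LPS. Il23a, which encodes the p19 subunit of IL-23, was at 0 and 0.0621 TPM in Untr, 6.78 and 5.98 TPM in LPS and 21.8 and 23.3 TPM in Met + LPS. Csf2, which encodes the growth factor GM-CSF, was listed at 0 in both untreated libraries and was at 10.2 and 6.51 TPM in LPS and 10.4 and 13.8 TPM in Met + LPS. For these 3 genes both Met + LPS libraries were above both LPS libraries, although for Csf2 by a margin smaller than the difference between duplicates. The 6 genes switched off were Ier5l, Fam78a, Bmf, Cnr2, Gm15513 and Dnajc28, and all 6 were also under 1 TPM in both LPS libraries. Bmf, a pro-apoptotic member of the Bcl-2 family, was at 15.2 and 18.0 TPM in Untr and 0.252 and 0.301 TPM in Met + LPS. Leaving out the first untreated library raised the count of genes switched off to 10.

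Among the 10 largest decreases were regulators of metabolism and of blood cell differentiation. Txnip, an arrestin that restrains glucose uptake and binds thioredoxin, went from 265 and 259 TPM in Untr to 57.4 and 59.5 TPM in LPS and 7.50 and 9.55 TPM in Met + LPS, which is a log2 fold change of -4.80 ± 0.09 (SE) (adjusted p = 4.70e-08). Sesn1, a p53-inducible inhibitor of mTORC1 signalling, was at 186 and 187 TPM in Untr, 7.36 and 7.40 TPM in LPS and 7.94 and 6.61 TPM in Met + LPS (-4.50 ± 0.08 (SE), adjusted p = 2.66e-08). Thus the 2 stimulated groups overlapped for Sesn1 and were clearly separate for Txnip. Lyl1, a basic helix-loop-helix factor of blood cells, was at 151 and 160.0 TPM in Untr and 7.64 and 7.34 TPM in Met + LPS, and the myeloid receptor gene Cd300lb at 487 and 495 TPM and 26.7 and 28.4 TPM. Rab3il1, Zfp395, Gpr146 and the transcripts Gm11699 and Gm38158 completed the 10 largest decreases with log2 fold changes between -4.21 and -3.85. All 10 kept their direction and passed the cut-offs after rescaling.

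Of 16 genes of AMPK and energy stress, 1 rose and 7 fell, with a median log2 fold change of -0.90, and after rescaling 1 rose and 4 fell. Over all genes the median was -0.49, 7.64% rose and 22% fell, and after rescaling 12.2% rose and 8.53% fell. Prkaa1, which encodes the catalytic α1 subunit of AMPK, was at 51.7 and 53.02 TPM in Untr, 30.6 and 29.1 TPM in LPS and 24.7 and 24.2 TPM in Met + LPS, which is a log2 fold change of -1.07 ± 0.05 (SE) that did not pass after rescaling (-0.54). Flcn, which encodes folliculin, a regulator of lysosomal nutrient signalling, was at 120.1 and 122 TPM in Untr, 10.1 and 8.97 TPM in LPS and 27.3 and 27.9 TPM in Met + LPS, and its partner Fnip2 at 466 and 453 TPM, 50.8 and 47.4 TPM and 149 and 133 TPM. Tfeb, a transcription factor of lysosomal genes that folliculin controls, was at 53.1 and 52.6 TPM in Untr, 4.70 and 4.13 TPM in LPS and 11.6 and 9.57 TPM in Met + LPS. For these 3 genes Met + LPS lay between LPS and untreated. Fnip1 was back at 89.1 and 79.1 TPM in Met + LPS against 93.2 and 87.5 TPM in Untr and 28.2 and 29.2 TPM in LPS, and its difference from untreated did not pass. The gene that rose was Arrdc4, an arrestin related to Txnip, at 6.28 and 6.08 TPM in Untr, 8.94 and 8.85 TPM in LPS and 21.4 and 20.3 TPM in Met + LPS.

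Next, genes were sought that differed from untreated only after Met + LPS, defined as past the cut-offs for Met + LPS against untreated, not past them for LPS against untreated, and past 0.7 on the log2 scale, with an adjusted p-value below 0.01, for Met + LPS against LPS in the same direction. This definition held for 64 higher genes (0.512% of the genes tested) and 167 lower genes (1.34%), and since it used these 3 contrasts, the values given for members are descriptions. Failing a cut-off after LPS does not show that LPS left a gene unchanged. For 49 of the 64 and 71 of the 167 the absolute log2 fold change of LPS against untreated was also under 0.5. This limit depended on the scaling, since the median of that fold change over all tested genes was -0.49 as deposited and -0.024 after rescaling. Only 28 higher and 15 lower genes met the definition with this limit under both scalings. After rescaling the class held 142 higher and 124 lower genes, which included 56 of the 64 (39.4% of the 142) and 95 of the 167 (76.6% of the 124). In all 64 and all 167 genes both Met + LPS libraries lay outside the range of the 4 other libraries. This follows largely from the definition and is no further support for the class. Over all genes both Met + LPS libraries were above the 4 others for 9.91% and below them for 29.8%. The members closest to the cut-off were Tent5c among the higher genes, at a log2 fold change of 1.01, and Flot1 among the lower ones, just past it.

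**Figure D3:**
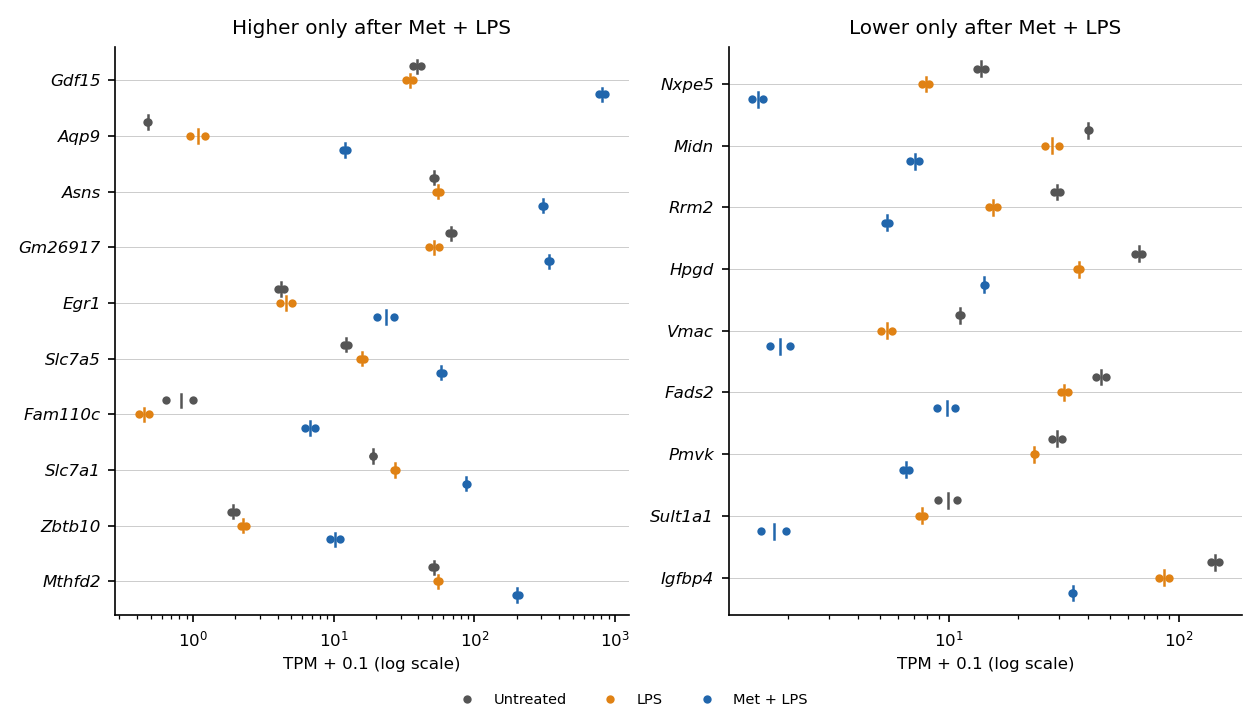
Level in each library (horizontal axis, TPM + 0.1, log scale) of 10 higher and 9 lower genes, from among the largest members with a mean of at least 5 TPM, of the class that differed from untreated only after Met + LPS. Points are the 2 libraries of a group and ticks their mean; for each gene the Met + LPS points (blue) stand apart from untreated (grey) and LPS (orange), as for Gdf15 at 853 and 770 TPM.

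The higher members were led by a stress cytokine and by genes of amino acid supply. Gdf15, which encodes a secreted cytokine of the TGF-β superfamily that reduces food intake, was at 36.6 and 41.4 TPM in Untr, 32.8 and 36.5 TPM in LPS and 853 and 769.9 TPM in Met + LPS, which is a log2 fold change of 4.34 over untreated. Asns, asparagine synthetase, was at 52.3 and 50.4 TPM in Untr, 56.9 and 53.6 TPM in LPS and 303 and 314 TPM in Met + LPS. As deposited, both genes were within 0.2 log2 units of untreated after LPS (-0.17 and 0.10). The median of all tested genes after LPS was -0.49 on this scale, so the nearness to untreated depended on the scaling. Mthfd2, a mitochondrial enzyme of one-carbon metabolism, was at 52.8 and 49.6 TPM in Untr, 56.1 and 54.1 TPM in LPS and 196 and 208 TPM in Met + LPS. Phgdh, the first enzyme of serine synthesis, was at 28.7 and 28.7 TPM, 25.7 and 23.8 TPM and 100.0 and 105 TPM, although only 43.7% of its 31-base words occurred in no other gene. Aqp9, a channel for water, glycerol and other small solutes, went from 0.381 and 0.371 TPM in Untr and 1.11 and 0.860 TPM in LPS to 11.6 and 12.3 TPM in Met + LPS. Egr1, an immediate-early transcription factor, was at 4.34 and 3.92 TPM in Untr, 4.07 and 4.95 TPM in LPS and 26.9 and 20.3 TPM in Met + LPS, with a wider gap between duplicates than for the other leading genes.

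Carriers of amino acids were among the higher members as well. Slc7a5, the light chain of the LAT1 exchanger for large neutral amino acids, was at 12.5 and 11.7 TPM in Untr, 16.3 and 15.4 TPM in LPS and 59.6 and 56.7 TPM in Met + LPS, and its heavy chain Slc3a2 was at 329 and 319 TPM, 424 and 419 TPM and 783 and 772 TPM. Slc7a1, a carrier of arginine and lysine, was at 18.9 and 19.1 TPM in Untr, 27.5 and 26.7 TPM in LPS and 87.7 and 87.9 TPM in Met + LPS. In the list of 16 tested amino acid transporters 8 rose and 3 fell against untreated (10 and 1 after rescaling), and 5 of the 8 belonged to the class seen only after Met + LPS. The largest rise in the list was that of Slc7a11, the cystine importer that feeds glutathione synthesis, at 1.58 and 1.46 TPM in Untr, 10.7 and 10.2 TPM in LPS and 60.7 and 61.6 TPM in Met + LPS (log2 fold change 4.62 ± 0.06 (SE), adjusted p = 8.53e-09). In contrast, Slc43a2, Slc36a1 and Slc38a9 fell, the latter 2 being lysosomal carriers. After rescaling the log2 fold change of Slc43a2 was -1.08 and still passed, whereas those of Slc36a1 and Slc38a9 (-0.99 and -0.61) did not. Of 20 cytosolic aminoacyl-tRNA synthetases, which charge tRNAs for translation, 2 rose and none fell, and after rescaling 11 rose. Over all genes 7.64% rose and 22% fell, and after rescaling 12.2% rose and 8.53% fell. In 13 of the 20 both Met + LPS libraries were above the 4 other libraries and in 2 below, against 9.91% and 29.8% of all genes. The 2 that rose as deposited were Aars, at 66.7 and 68.4 TPM in Untr, 55.0 and 53.6 TPM in LPS and 169 and 175 TPM in Met + LPS, and Eprs, at 29.9 and 29.97 TPM, 28.3 and 26.0 TPM and 79.8 and 79.3 TPM.

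The next 3 promoters are those of higher members of the class that hold the composite element of ATF4 and C/EBP factors within the stretch before the RefSeq start, searched as TGATGNAA on both strands. Asns is the 120 bases at chr6:7693210-7693329 (minus strand), Aars the 120 bases at chr8:111033722-111033841 (plus strand) and Aqp9 the 90 bases at chr9:71162634-71162723 (minus strand) of GRCm38.p6, each ending 1 base before the start. Capitals mark the match, which in Aars reads on the opposite strand.
Asns: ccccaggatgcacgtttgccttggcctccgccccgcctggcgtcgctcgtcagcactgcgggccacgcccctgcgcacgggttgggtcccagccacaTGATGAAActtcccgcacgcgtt
Aars: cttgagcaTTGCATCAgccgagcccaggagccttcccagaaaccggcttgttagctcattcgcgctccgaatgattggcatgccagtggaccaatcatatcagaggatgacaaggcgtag
Aqp9: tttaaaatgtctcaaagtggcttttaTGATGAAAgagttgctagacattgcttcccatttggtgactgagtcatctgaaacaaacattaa
In the windows around the start the motif was found for 4 of the 35 higher members with a window (11.4%), the fourth being Slc1a4, and for 7 of 130 lower members (5.38%). It was found for 7 of 17 genes of the integrated stress response list (41.2%) and for 5 of 12 aminoacyl-tRNA synthetases (41.7%). The share was 4.51% of all genes with a window and 2.82% of the tested genes with a window.

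Of 19 tested genes of the integrated stress response, 8 rose and none fell, with a median log2 fold change of 0.87 against -0.49 over all genes, and after rescaling 12 rose. Over all genes 7.64% rose and 22% fell, and after rescaling 12.2% rose and 8.53% fell. The list shares Slc7a11 and Slc3a2 with the transporters and Asns with serine synthesis. It also shares Atf5 with the mitochondrial chaperones and proteases and Atf3 with the immediate-early factors. In 15 of the 19 both Met + LPS libraries were above the 4 other libraries, which held for 9.91% of all genes, and the list averaged 0.162% of all TPM in Untr, 0.208% in LPS and 0.434% in Met + LPS. Ppp1r15a, which encodes the phosphatase subunit GADD34 that ends the response, was at 33.5 and 34.4 TPM in Untr, 187 and 199 TPM in LPS and 354 and 340.2 TPM in Met + LPS (log2 fold change 3.32 ± 0.04 (SE), adjusted p = 8.21e-09). Nupr1, a stress-inducible chromatin protein, was at 6.91 and 6.50 TPM in Untr and at 125 and 135 TPM in Met + LPS, which overlapped the 127 and 118 TPM in LPS. Atf4 itself was at 258 and 258 TPM in Untr, 198 and 194 TPM in LPS and 331 and 334 TPM in Met + LPS, and its log2 fold change of 0.36 over untreated did not reach the cut-off. ATF4 is controlled largely through its translation, which these data do not measure. Atf5, a related factor that induces mitochondrial chaperones, was at 68.2 and 76.3 TPM in Untr, 73.2 and 68.5 TPM in LPS and 217 and 227 TPM in Met + LPS.

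**Figure D4:**
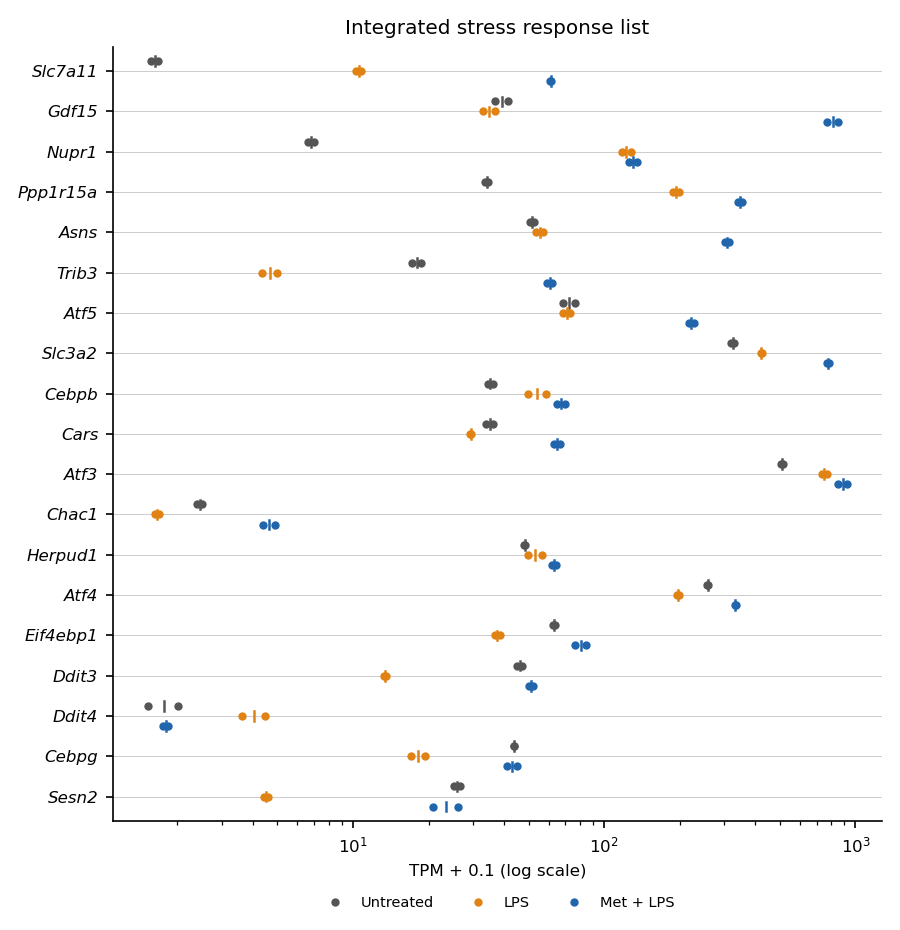
Level in each library (horizontal axis, TPM + 0.1, log scale) of the 19 tested genes of the integrated stress response list, ordered by their log2 fold change of Met + LPS over untreated. Points are the 2 libraries of a group and ticks their mean; genes in the upper rows are highest in Met + LPS (blue), while Ddit3, Cebpg and Sesn2 at the bottom are low in LPS (orange) and in Met + LPS lie near untreated (grey).

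Some stress genes, including Trib3, Ddit3 and Sesn2 of the list above, were low after LPS and, after Met + LPS, near or above the untreated level. Trib3, a pseudokinase induced by ATF4, was the 1 gene past the cut-offs on opposite sides of untreated, at 18.6 and 17.1 TPM in Untr, 4.88 and 4.26 TPM in LPS and 58.9 and 62.1 TPM in Met + LPS, with log2 fold changes of -1.76 after LPS and 1.71 ± 0.07 (SE) after Met + LPS. Genes with a similar course are named after their values were seen. Ddit3, which encodes the pro-apoptotic factor CHOP, was at 46.9 and 45.0 TPM in Untr, 13.2 and 13.4 TPM in LPS and 49.96 and 51.8 TPM in Met + LPS. Sesn2, a leucine sensor upstream of mTORC1, was at 25.2 and 26.6 TPM in Untr, 4.50 and 4.34 TPM in LPS and 26.0 and 20.7 TPM in Met + LPS. Gadd45a, a growth-arrest gene, was at 55.0 and 51.4 TPM in Untr, 4.24 and 4.66 TPM in LPS and 74.8 and 77.6 TPM in Met + LPS. For Ddit3, Sesn2 and Gadd45a the Met + LPS level differed from untreated by 0.14, -0.16 and 0.51 on the log2 scale, none of which passed as deposited. After rescaling 5 genes lay on opposite sides of untreated, Trib3 with Gadd45a, Slc38a2, Mir669n and Mir7030. Without the first LPS library 2 genes did so, and without the second LPS library 3, Trib3 being among them each time.

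The gene Gm26917 and the small nuclear RNA gene Rn7sk, which are not typical polyadenylated messengers, were also higher only after Met + LPS. Gm26917 was at 66.1 and 70.1 TPM in Untr, 47.8 and 55.9 TPM in LPS and 335 and 344 TPM in Met + LPS, and Rn7sk at 12.3 and 17.3 TPM, 7.94 and 8.69 TPM and 42.4 and 48.8 TPM. Only 27.2% of the 31-base words of Rn7sk occurred in no other gene. The mitochondrial ribosomal RNA mt-Rnr2 was at 869 and 821 TPM in Untr, 929 and 943 TPM in LPS and 1612 and 1595 TPM in Met + LPS, while the mitochondrial messengers mt-Nd2, mt-Nd4, mt-Nd5 and mt-Cytb had log2 fold changes between -0.36 and -0.30 and that of mt-Co1 was 0.20. For mt-Nd4 and mt-Co1 only 37.2% and 36.1% of the 31-base words occurred in no other gene. Of the 64 higher members 51 were protein-coding and 8 rested on fewer than 10 reads per library on average. The part of RNA that escapes polyadenylated selection in these results was not tested.

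The lower members of the class included much of the cholesterol pathway. Of 23 tested genes of sterol biosynthesis and uptake, 17 fell and none rose, with a median log2 fold change of -1.75 against -0.49 over all genes, where 22% of all genes fell. After rescaling 14 of the 23 fell, where 8.53% of all genes fell. In 22 of the 23 both Met + LPS libraries were below the 4 other libraries, which held for 29.8% of all genes. The same held for 46 of 66 respiratory chain genes, 21 of 31 cell cycle genes and 18 of 30 genes of the TCA cycle list. It held as well for 15 of 22 endoplasmic reticulum chaperones and folding factors, and so was not particular to this list. Of the 17 sterol genes that fell, 13 belonged to the class seen only after Met + LPS. The sterol list was 0.107% of all TPM in untreated cells, 0.0973% in LPS and 0.0524% in Met + LPS on average.

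The early, mevalonate part of the pathway was lowered unevenly. Hmgcs1, HMG-CoA synthase, was at 78.2 and 79.8 TPM in Untr, 96.5 and 89.3 TPM in LPS and 43.1 and 41.2 TPM in Met + LPS. It was lower in Met + LPS than in the other groups without passing the cut-off against untreated (-0.89). Later enzymes of this part passed it. Phosphomevalonate kinase, Pmvk, was at 27.9 and 30.8 TPM in Untr, 23.2 and 23.4 TPM in LPS and 6.18 and 6.60 TPM in Met + LPS, and Mvd, which makes isopentenyl diphosphate, at 46.6 and 50.5 TPM, 17.6 and 17.9 TPM and 10.5 and 9.60 TPM. Idi1, the isomerase that follows, was at 11.7 and 11.9 TPM in Untr, 16.4 and 17.4 TPM in LPS and 3.85 and 3.87 TPM in Met + LPS. Hence Mvd was below untreated in both stimulated groups, whereas Idi1 was above it after LPS and below it after Met + LPS. After rescaling the log2 fold change of Idi1 was -0.92 and no longer passed.

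In the later, squalene and sterol part, Sqle, squalene epoxidase, was at 60.9 and 59.8 TPM in Untr, 39.4 and 38.1 TPM in LPS and 17.7 and 16.9 TPM in Met + LPS. Cyp51, the lanosterol demethylase, was at 61.3 and 61.2 TPM in Untr, 59.1 and 58.9 TPM in LPS and 17.6 and 16.8 TPM in Met + LPS, which is a log2 fold change of -1.78 over untreated where that of LPS was -0.05. In both, LPS alone left the level at or between untreated and Met + LPS. These levels are as deposited, where the median log2 fold change of all tested genes after LPS was -0.49. Msmo1, Hsd17b7 and Sc5d, which act between lanosterol and cholesterol, had log2 fold changes of -1.88, -1.93 and -1.61. Of the regulators, Srebf2, which encodes SREBP2, was at 109.6 and 114 TPM in Untr and 84.1 and 78.0 TPM in Met + LPS (log2 fold change -0.46, but 0.08 after rescaling), and Insig1, which retains the SREBP complex, at 113 and 113 TPM and 148 and 127 TPM. Fdps shared 26.7% and Fdft1 18.3% of their exon bases with another gene, so the levels of these genes are uncertain. The sterol response element, searched as TCACNCCAC, was found near the start of 1 of the 16 sterol genes with a window (Hmgcs1), of 3 of the 130 lower members of the class and of 1.44% of all genes.

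**Figure D5:**
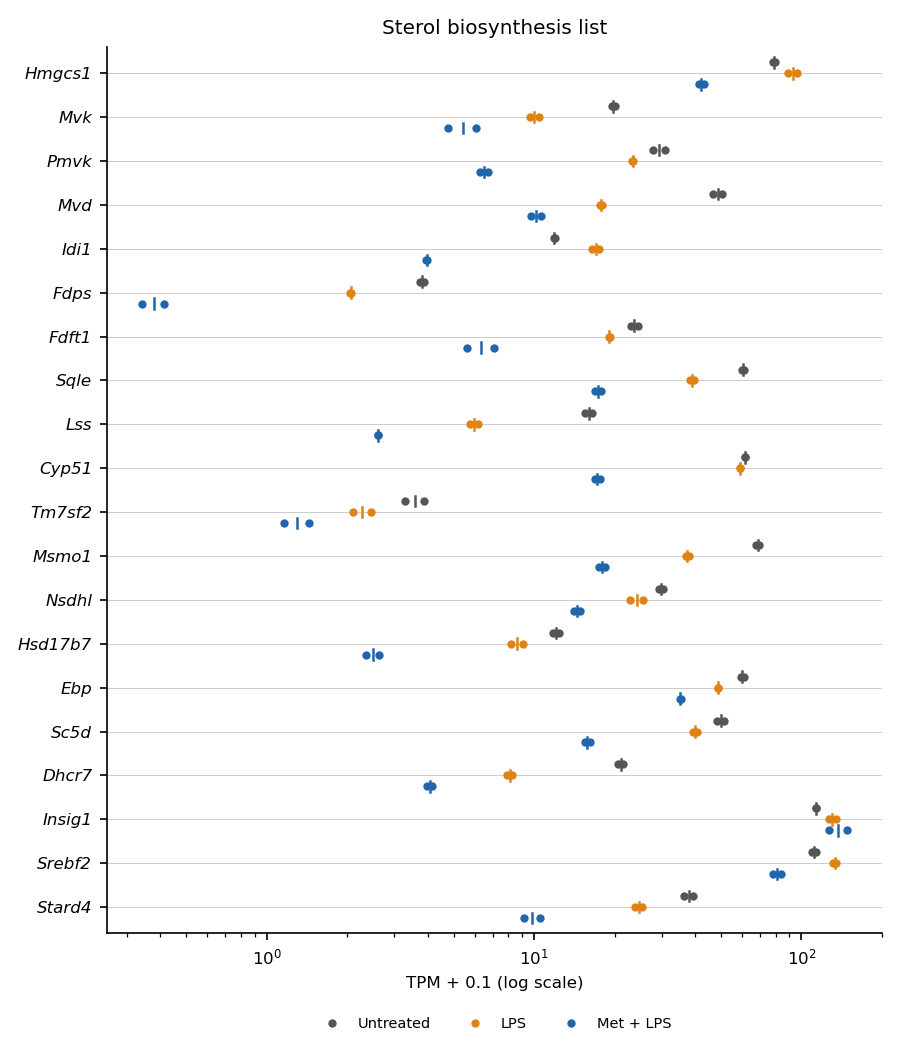
Level in each library (horizontal axis, TPM + 0.1, log scale) of 20 tested genes of the sterol list, in the order of the pathway from Hmgcs1 onwards, followed by regulatory and transport genes. Points are the 2 libraries of a group and ticks their mean; in 19 of these 20 genes both Met + LPS libraries (blue) lie below untreated (grey) and LPS (orange), the exception being Insig1.

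Enzymes of fatty acid synthesis were also lower. Fads2, a desaturase of polyunsaturated fatty acids, was at 48.0 and 43.4 TPM in Untr, 32.6 and 30.5 TPM in LPS and 10.5 and 8.77 TPM in Met + LPS, and Fasn, fatty acid synthase, at 51.0 and 52.3 TPM, 30.001 and 30.4 TPM and 15.0 and 15.5 TPM. Scd2, a stearoyl-CoA desaturase, fell in both stimulated groups, from 78.4 and 82.2 TPM in Untr to 19.1 and 18.0 TPM in LPS and 7.47 and 6.78 TPM in Met + LPS (log2 fold change -3.32 ± 0.06 (SE), adjusted p = 3.66e-08). Of 14 targets of the oxysterol receptor LXR and of cholesterol efflux, 5 fell and none rose, 2 of them after rescaling. Over all genes 22% fell, and 8.53% after rescaling. The list median was -0.55 against -0.49 over all genes, and -0.011 against -0.0048 after rescaling. The list as a whole therefore lay near the median of all genes. Abcg1, which exports cholesterol to high-density lipoprotein, was at 343 and 343 TPM in Untr, 74.9 and 82.8 TPM in LPS and 84.8 and 74.4 TPM in Met + LPS, so that the stimulated groups overlapped. The remaining leading members of the lower class had varied roles. Igfbp4, a binding protein of insulin-like growth factors, was at 138 and 148 TPM in Untr, 89.7 and 81.7 TPM in LPS and 34.2 and 34.6 TPM in Met + LPS, and Hpgd, which inactivates prostaglandins, at 64.3 and 69.1 TPM, 35.9 and 37.0 TPM and 14.2 and 14.03 TPM. Midn, Nxpe5, Vmac and Sult1a1 had log2 fold changes between -2.63 and -2.03.

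Some surface receptors belonged to the lower class as well. Of 24 phagocytic, scavenger and lectin receptors, 6 rose and 7 fell (6 and 4 after rescaling), and 3 of the 7 belonged to this class. Over all genes 7.64% rose and 22% fell (12.2% and 8.53% after rescaling). The Fc receptor gene Fcgr1, whose product binds monomeric IgG, was at 162 and 168 TPM in Untr, 153 and 177 TPM in LPS and 74.9 and 73.8 TPM in Met + LPS, and Fcgr3 at 737 and 705 TPM, 644 and 622 TPM and 336 and 317 TPM. Their log2 fold changes passed as deposited (-1.14 and -1.14) and did not pass after rescaling (-0.60 and -0.60). Cd163, a scavenger receptor for haemoglobin, was at 16.8 and 16.5 TPM in Untr, 6.28 and 6.15 TPM in LPS and 2.88 and 2.11 TPM in Met + LPS, and Mertk, a receptor for the uptake of apoptotic cells, at 54.1 and 51.7 TPM, 21.1 and 21.8 TPM and 14.5 and 12.9 TPM. On the other hand Clec4e, which encodes the mycobacterial glycolipid receptor Mincle, went from 16.4 and 17.8 TPM in Untr to 825 and 842 TPM in Met + LPS (log2 fold change 5.53 ± 0.04 (SE), adjusted p = 1.07e-09). Tlr8 belonged to the lower class by the definition above, at 197 and 199.8 TPM in Untr, 142 and 138 TPM in LPS and 77.8 and 76.3 TPM in Met + LPS. Its log2 fold change after LPS alone was -0.50, and that after Met + LPS did not pass after rescaling (-0.81). Of 22 myeloid transcription factors 5 rose and 5 fell, and after rescaling 9 rose and 5 fell.

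Of 31 cell cycle and replication genes, 3 rose and 15 fell, with a median log2 fold change of -0.997, where 7.64% of all genes rose and 22% fell. After rescaling 3 rose and 5 fell, where 12.2% of all genes rose and 8.53% fell. Rrm2, the regulated subunit of ribonucleotide reductase, was at 28.3 and 30.1 TPM in Untr, 16.1 and 14.8 TPM in LPS and 5.39 and 5.18 TPM in Met + LPS, and the cyclin gene Ccnd1 at 47.0 and 44.2 TPM, 22.4 and 25.02 TPM and 14.8 and 13.4 TPM. Its relative Ccnd2 took the opposite direction, from 2.74 and 2.63 TPM in Untr to 60.1 and 59.6 TPM in Met + LPS. Of 20 p53 targets and Gadd45 genes, 3 rose and 5 fell, but after rescaling 7 rose and 3 fell, so the more frequent direction turned with the scaling. Cdkn1a, which encodes the cell cycle inhibitor p21, was at 102 and 98.3 TPM in Untr, 1813 and 1757 TPM in LPS and 1206 and 1214 TPM in Met + LPS. Of 15 circadian clock genes 1 rose and 7 fell (1 and 4 after rescaling), with Per1 at 16.3 and 16.2 TPM in Untr, 1.28 and 1.12 TPM in LPS and 3.69 and 2.79 TPM in Met + LPS. Of 18 immediate-early genes 7 rose and 2 fell (10 and none after rescaling), and the 2 that fell, Fos and Jun, did not pass after rescaling (-0.86 and -0.68).

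Chaperones were examined by compartment. Of 22 endoplasmic reticulum chaperones and folding factors, none rose and 3 fell, and 2 of these fell after rescaling. The median log2 fold change of the list was -0.54 against -0.49 over all genes, near the background. Over all genes 7.64% rose and 22% fell, and after rescaling 12.2% rose and 8.53% fell. The largest decrease was that of Eif2ak3, which encodes the stress kinase PERK, at 21.3 and 22.6 TPM in Untr, 3.42 and 3.39 TPM in LPS and 2.72 and 3.04 TPM in Met + LPS. Sdf2l1 and Pdia4, which act in protein folding, belonged to the class lower only after Met + LPS by the definition above. After LPS alone their log2 fold changes were -0.65 and -0.53, short of the cut-off. After rescaling Pdia4 no longer passed (-0.95) and left this class. Sdf2l1 was at 170.1 and 180.4 TPM in Untr, 109 and 114 TPM in LPS and 58.4 and 57.4 TPM in Met + LPS, and Pdia4 at 125 and 129 TPM, 90.1 and 84.9 TPM and 44.5 and 44.5 TPM. Hspa5, the chaperone BiP, did not pass the cut-offs (0.40). Of 14 mitochondrial chaperones and proteases, 2 rose and none fell, and after rescaling 4 rose. Hspa9, which encodes mortalin of the mitochondrial matrix, was at 256 and 251 TPM in Untr, 247 and 232 TPM in LPS and 809 and 839.5 TPM in Met + LPS. The other was Atf5, a transcription factor and not itself a chaperone or protease, which is also counted in the integrated stress response list. Hspd1, the mitochondrial chaperonin, was at 174 and 175 TPM in Untr, 140.3 and 139 TPM in LPS and 262 and 270.0 TPM in Met + LPS, which is a log2 fold change of 0.60 that passed only after rescaling (1.14).

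For central energy metabolism few genes passed the cut-offs. Over all genes 7.64% rose and 22% fell, and after rescaling 12.2% rose and 8.53% fell. Of 66 nuclear genes of the respiratory chain, 1 fell and none rose, with a median log2 fold change of -0.45 that was 0.08 after rescaling. In 46 of the 66 both Met + LPS libraries were below the 4 other libraries and in 1 above, which held for 29.8% and 9.91% of all genes. Ndufv3 was the 1 that fell (-1.09, but -0.56 after rescaling). Ndufb9, another complex I subunit, was at 74.5 and 70.1 TPM in Untr, 53.8 and 53.03 TPM in LPS and 42.3 and 48.2 TPM in Met + LPS. Of 30 genes of the TCA cycle and pyruvate entry, 1 rose and 3 fell (2 and 2 after rescaling), the riser being Acod1. Idh1, the cytosolic isocitrate dehydrogenase, was at 324 and 330.1 TPM in Untr, 196 and 188 TPM in LPS and 109 and 97.9 TPM in Met + LPS. Of 24 glycolysis genes 5 rose and 3 fell, and after rescaling 6 rose and 1 fell. The hexokinase gene Hk2 went from 26.6 and 26.9 TPM in Untr to 129.8 and 124 TPM in Met + LPS and the glucose transporter gene Slc2a1 from 30.7 and 29.5 TPM to 85.7 and 87.6 TPM, whereas Pkm and Aldoa, the most abundant members, did not pass. Of 36 lysosomal genes 1 rose and 2 fell (1 and none after rescaling), and of 21 NRF2 targets 3 rose and 1 fell (6 and 1), the highest riser among the latter being Slc7a11. Sqstm1, an autophagy receptor of the NRF2 list, was at 793 and 804 TPM in Untr, 2868 and 2767 TPM in LPS and 4126 and 4264 TPM in Met + LPS. Of 14 genes of serine, one-carbon and proline synthesis 4 rose and 2 fell (8 and 1 after rescaling), and all 4 that rose, Asns, Mthfd2, Phgdh and Aldh1l2, did so only after Met + LPS by the definition above.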

How the data were processed

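RNA was measured in 6 libraries, 2 per group, and 4 of them (Untr and Met + LPS) were compared. Per the labels and the study's methods, the authors aligned single-end reads of polyadenylated RNA to GRCm38 with STAR 2.6.1d, used SAMtools 1.9 and counted reads per gene with featureCounts (Subread 1.6.3). The authors deposited TPM per gene, which have the same sum in each library. How they were converted from counts, and whether counting used strand, is not given in the sources used here. The study's own tests used DESeq2 on counts, which were not used here.

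All 6 libraries were fitted together in limma 3.58.1 (R 4.3.3) on log2(TPM + 1) with trended empirical Bayes moderation, after keeping genes with at least 1 TPM in 2 or more of the 4 libraries compared, and p-values were adjusted over all 12497 genes by Benjamini-Hochberg. Fold changes are on the log2(TPM + 1) scale, which understates changes of low genes. Cut-offs were 1 on the log2 scale (0.7 for Met + LPS against LPS) and 0.01 for the adjusted p-value. An exact permutation test of 2 against 2 libraries cannot go below a two-sided p of 0.333, so calls rest on the spread pooled over genes. The Met + LPS and LPS contrasts share the untreated libraries. The fit was tested on simulated data. Reads were recovered from the TPM steps and the exon length of each gene in the GENCODE annotation, with overlapping exons counted once. Of the values above 0, 96.1% to 96.3% came out within 0.02 of a whole read. Counting intervals cover counting error only. Uniqueness was measured with words of 31 bases. Alternatives were a median-ratio scaling, pseudocount 0.1, other filters, a fit of the compared groups only, no trend, a replicate block, other cut-offs, each library left out, and voom on recovered reads, the latter added after seeing the data.

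The 27 gene lists and the genes named were chosen with earlier results of these data known. Named by rule were the 10 largest changes in each direction, the 10 largest members of the class seen only after Met + LPS in each direction, genes on opposite sides of untreated, up to 4 called and 2 other members of each list, the 5 highest genes switched on and off, and 7 genes that the study measured by RT-qPCR. Chosen after their values were seen were Ddit3, Sesn2, Gadd45a, Cebpg, Arrdc4, Fos, Jun, Csf2, Il23a, Lif, Fcgr1, Fcgr3, Rn7sk, the mitochondrial transcripts, the additional sterol and fatty acid genes (Hmgcs1, Idi1, Fdps, Fdft1, Sqle, Cyp51, Msmo1, Hsd17b7, Sc5d, Fasn), Slc3a2, Slc1a4, Slc43a2, Slc36a1, Slc38a9, Aldh1l2, Ccl3, Ccl4 and members given only as not passing. A few genes that these rules name are not reported here. Promoter sequences were taken from RefSeq (GRCm38.p6) by symbol, where 9032 of the tested genes had a window.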

Additional observations from a re-analysis of the deposited data

How the results depend on the processing

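The balance of directions moved with the scaling and with the fold-change cut-off, from 25.8% of called genes higher as deposited to 58.8% with median-ratio scaling and 59.5% with a log2 cut-off of 2. With median-ratio scaling 1524 genes were higher and 1066 lower, the class seen only after Met + LPS held 142 higher genes, 5 genes lay on opposite sides of untreated and 3 were switched off. With voom on recovered reads, chosen after seeing the data, 4514 genes passed, 253 were lower only after Met + LPS and 2 lay on opposite sides. With voom and median-ratio scaling 1672 genes were higher, 1706 lower, the class held 352 genes (159 higher) and 7 lay on opposite sides. A log2 cut-off of 2 gave 682 genes (406 higher, 276 lower), a class of 69 (22 higher, 47 lower) and 0 on opposite sides. Only 9 of the 22 and 13 of the 47 also belonged to the class at a cut-off of 1. The cut-off of 2 held for LPS against untreated too, so it admitted genes that LPS alone had moved past 1. Requiring LPS against untreated to be under 0.5 gave a class of 120 (71 lower), and with median-ratio scaling, added after seeing the data, 104 higher and 92 lower. Thresholds of 1 and 5 TPM gave 137 switched genes (94 on, 43 off). Leaving out 1 library at a time gave between 3608 and 3733 genes past the cut-offs, between 1 and 3 genes on opposite sides and between 6 and 10 switched off, the last without the first untreated library.

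Of 180 named genes, 19 changed sign under median-ratio scaling, none of them past the cut-offs: Tgfb1 (0.17), Cxcl14 (0.28), Tnip2 (0.28), Hspe1 (0.49), Srebf2 (0.082), Npc2 (0.42), Aldoa (0.21), Sdhd (0.050), Cox8a (0.13), Psap (0.14), Ftl1 (0.081), Cdt1 (0.19), Fcer1g (0.36), Tlr7 (0.44), Cd74 (0.29), H2-Aa (0.093), Spi1 (0.40), Nr1d2 (0.49) and Fnip1 (0.44). A further 12 gained and 9 lost the call. Bst2 was at -0.019 without the second Met + LPS library. The replicate numbers share only a label: deviations of same-numbered libraries from their group means correlated at 0.020, 0.034 and -0.0095. With the replicate block 3719 genes passed (961 higher, 2758 lower), the class held 232 genes (64 higher, 168 lower) and 1 lay on opposite sides. The other alternatives moved these counts by less than 1.5 times. Depth limits the lowest genes: 8 of the 64 and 8 of the 167 class members had under 10 reads on average.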

Other observations

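Several genes switched on in Met + LPS act outside the cytokine and interferon groups described above and were lower there than after LPS alone. Nos2, the inducible nitric oxide synthase, was at 0.0596 and 0.0949 TPM in Untr, 121 and 122 TPM in LPS and 44.5 and 46.1 TPM in Met + LPS. Adora2a, an adenosine receptor that dampens inflammation, was at 0.472 and 0.182 TPM, 62.9 and 63.0 TPM and 40.6 and 44.1 TPM. Edn1, which encodes the vasoconstrictor endothelin-1, was at 0.123 and 0.457 TPM in Untr, 198 and 208 TPM in LPS and 147 and 151 TPM in Met + LPS. These genes were named after their values were seen. Of the 49 genes switched on, 35 had a lower and 14 a higher mean in Met + LPS than in LPS, which is a description without a test.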
